A study of Mus musculus with 6 samples.

Results

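Lcn2, A2m, Cebpb, Cebpd, Nfkb2, Relb, Bcl3, Nfkbia, Cd44 and S1pr3 are 10 genes of the acute-phase and NF-kB response of reactive glia. They were chosen by symbol, all 10 were found among the 24062 genes of the deposited count table, and all 10 were among the 13905 genes abundant enough to be tested. RNA-seq libraries came from whole retinas of wild-type mice (WT) and of rd10 mice, both labelled as strain C57Bl6/J and both taken at postnatal day 30, with 3 samples per group and 2 frozen retinas pooled in each sample. The labels name no treatment. The rd10 line carries a missense change in the rod phosphodiesterase gene Pde6b and loses its rods, and the title of the series concerns YAP and TEAD in reactive Müller cells. The labels do not say that the 3 samples per group are from different mice, and the spread behind each p-value is therefore that of these samples, possibly technical. Each library is named here by the number in its count column (WT-1, WT-4 and WT-23 for WT, and Rd10-3, Rd10-4 and Rd10-5 for rd10).

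Müller cells, the radial glia of the retina, and astrocytes answer neuronal loss with a change of state called reactive gliosis, in which intermediate filament, acute-phase and cytokine response genes come up. In the acute-phase response, best known from the liver, cytokines of the interleukin-6 family act through STAT3 and interleukin-1 and TNF act through NF-kB, and C/EBP beta and C/EBP delta join these factors at the promoters of secreted acute-phase proteins. NF-kB dimers are held in the cytoplasm by inhibitors such as IkB alpha, which NF-kB itself induces. A second branch of the pathway runs through processing of the Nfkb2 product and its partner RelB. Lcn2, Cd44 and S1pr3 are widely used as markers of reactive astrocytes.

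Promoters of 7 of the 10 genes (Lcn2, Cebpb, Nfkb2, Bcl3, Nfkbia, Cd44 and S1pr3) were matched in the RefSeq promoter table of build GRCm38.p6, which gives 250 bases before to 50 bases after each start, with 9 windows in all since Nfkb2 has 3. The windows were searched on both strands for the kB consensus, for the C/EBP motif TTGCNNAA and for the STAT motif TTCNNNGAA. The 4 windows below are shown because they carry matches in the genes on which the results turn: Bcl3 and Lcn2, which rose strongly, and Nfkb2 and Nfkbia, which share the kB letters but did not pass the test. Of the 3 Nfkb2 windows only the first is printed, and the others carry kB letters too. Capitals mark the matched letters, and each sequence is written 5′ to 3′ on the strand of its gene.
Lcn2: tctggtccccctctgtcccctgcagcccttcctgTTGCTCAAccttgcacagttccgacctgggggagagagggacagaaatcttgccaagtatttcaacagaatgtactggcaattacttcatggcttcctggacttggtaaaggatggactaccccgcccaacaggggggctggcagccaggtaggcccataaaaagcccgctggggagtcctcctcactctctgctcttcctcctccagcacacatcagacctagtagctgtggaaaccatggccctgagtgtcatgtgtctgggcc
Bcl3: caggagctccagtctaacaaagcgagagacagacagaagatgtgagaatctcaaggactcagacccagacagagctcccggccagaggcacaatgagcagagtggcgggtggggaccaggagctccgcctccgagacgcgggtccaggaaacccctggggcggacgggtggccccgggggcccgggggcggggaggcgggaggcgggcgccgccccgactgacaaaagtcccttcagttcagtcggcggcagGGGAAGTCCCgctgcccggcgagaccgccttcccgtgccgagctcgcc
Nfkbia: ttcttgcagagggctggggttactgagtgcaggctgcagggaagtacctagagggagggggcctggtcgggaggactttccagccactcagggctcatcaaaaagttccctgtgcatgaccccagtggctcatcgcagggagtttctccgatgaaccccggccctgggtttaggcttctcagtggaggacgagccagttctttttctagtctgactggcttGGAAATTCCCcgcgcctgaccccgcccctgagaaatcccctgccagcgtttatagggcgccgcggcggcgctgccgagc
Nfkb2: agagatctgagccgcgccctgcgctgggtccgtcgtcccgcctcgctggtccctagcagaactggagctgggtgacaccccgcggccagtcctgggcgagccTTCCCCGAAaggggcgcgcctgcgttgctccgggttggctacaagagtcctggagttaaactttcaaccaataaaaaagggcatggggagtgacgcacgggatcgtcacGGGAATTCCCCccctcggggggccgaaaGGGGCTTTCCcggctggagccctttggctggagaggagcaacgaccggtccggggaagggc
The Lcn2 window is chr2:32387690-32387989 on the minus strand, and its C/EBP match TTGCTCAA begins at position -216 from the start site. The Bcl3 window is chr7:19822706-19823005 on the minus strand, and its kB match GGGAAGTCCC begins at position 3 after the start. The Nfkbia window is chr12:55492598-55492897 on the minus strand, with the kB match GGAAATTCCC on the opposite strand at position -29. The Nfkb2 window is chr19:46304487-46304786 on the plus strand. It holds the STAT match TTCCCCGAA at -148, the kB matches GGGAATTCCC at -39 and GGAATTCCCC at -38, which overlap, and the kB match GGGGCTTTCC at -11. GGGAATTCCC reads the same on both strands and was counted once, and GGAATTCCCC matches on the opposite strand. The kB letters were in 5 of the 9 windows, against 8.46% of 32851 mouse promoters of the same length. C/EBP letters were in 1 of 9 windows against 10.8% of promoters, and STAT letters in 1 of 9 against 8.3%. The 5 are the windows of Bcl3 and Nfkbia and all 3 windows of Nfkb2. The Nfkb2 windows not printed are chr19:46305445-46305744, with kB matches at -236 and 11, and chr19:46305680-46305979, with a kB match at -225. These windows overlap, and GGGACTTTCC at 11 and at -225 is the same site counted in each. All are matches of letters, not shown sites of binding.

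WT libraries held 13573035 to 15818918 counts each, and rd10 libraries 10923556 to 12171088. Levels are given as CPM, the depth-scaled count, on library sizes scaled by edgeR's TMM factors. A gene was called where the adjusted p of edgeR's quasi-likelihood test (Benjamini-Hochberg over all 13905 genes) was under 0.05. By this rule 2008 genes were called, 14.4% of those tested, with 990 (7.12%) higher and 1018 (7.32%) lower in rd10. The share of calls that were higher was 49.3%, and it became 81.2% with library size alone, 63.3% with upper quartile factors and 14.0% with factors from inner neuron genes. The median over all genes shifted by 0.239 on the log2 scale with library size alone and by -0.299 with inner neuron factors. Libraries differed in base composition, with WT-1 and Rd10-4 to one side and WT-23 farthest to the other. Genes above the upper quartile of GC content (54.4%) were set against their mean over all libraries of both groups. On the log2 scale they deviated by 0.357 in WT-1, 0.311 in Rd10-4 and -0.387 in WT-23. The deviations were -0.116 in WT-4, -0.0694 in Rd10-3 and -0.0955 in Rd10-5. GC content of the longest transcript was above the median of tested genes in 8 of the 10 genes and above the upper quartile in 4. Rd10-4 had the highest CPM of the rd10 libraries for 9 of the 10 genes, against 40.3% of all genes, and WT-1 the highest of WT for 7 of 10, against 42.3%.

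All 10 genes had a higher fitted level in rd10 than in WT, and 6 of them passed the test: Lcn2, A2m, Cebpd, Bcl3, Cd44 and S1pr3. This count of 6 of 10 stands beside 7.12% of all tested genes called higher. None was lower by edgeR, at an unadjusted p under 0.05, by DESeq2 or by limma voom. Levels in the 3 rd10 libraries lay above all 3 WT libraries for 7 of the 10 genes, the 6 called ones and Nfkb2, against 17.1% of all tested genes. The median log2 fold change of the 10 genes was 1.65, against -0.0371 over all tested genes. Bcl3 passed the abundance filter only through its rd10 libraries, so its counts and the medians that include it are given as a description.

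**Figure D1:**
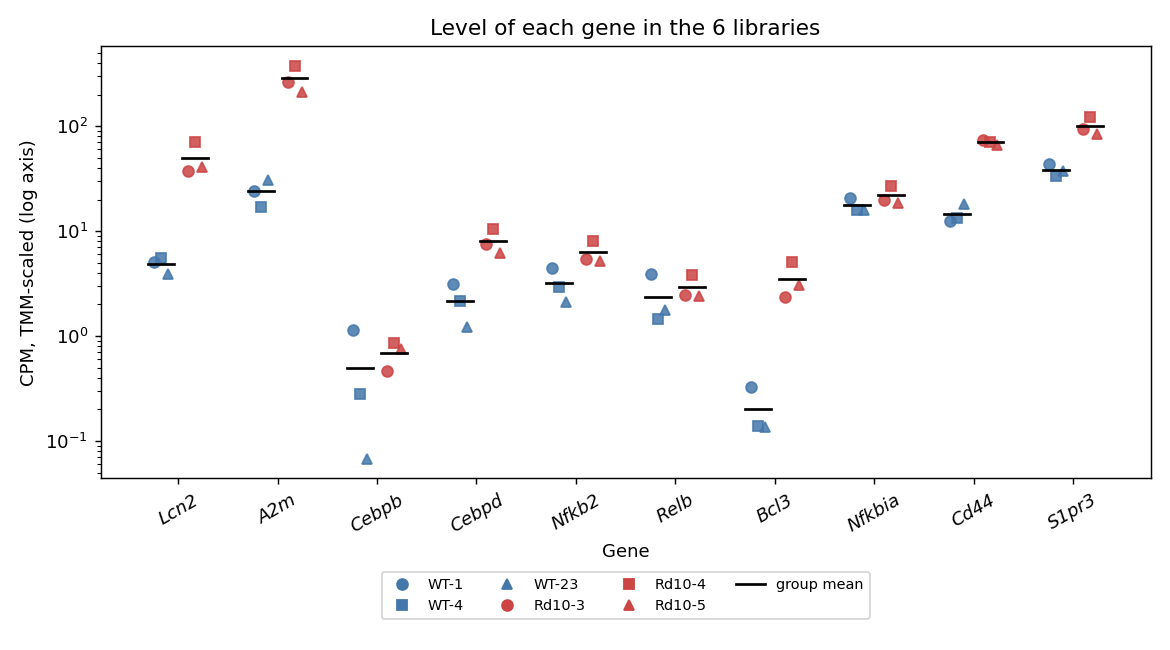
Level of each of the 10 genes in CPM (TMM-scaled, log axis) in every library, with blue points for WT, red points for rd10 and black bars for group means. The rd10 points lie above all WT points for 7 genes and overlap them for Cebpb, Relb and Nfkbia, and the square of Rd10-4 is the highest rd10 point for 9 genes.

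Both acute-phase products, Lcn2 and A2m, rose by more than the other called genes except Bcl3. Lcn2 encodes lipocalin 2, a secreted protein that binds bacterial siderophores and so withholds iron. It lies at 32384633 to 32388252 on the minus strand of chromosome 2 (GRCm38, GENCODE M21; 5 merged exons). Its level was 5.07, 5.5 and 3.93 CPM in WT-1, WT-4 and WT-23 and 37.1, 70.2 and 41.1 CPM in Rd10-3, Rd10-4 and Rd10-5. Every rd10 library was thus far above every WT library, and Rd10-4 stood well above the other two. The group means were 4.84 ± 0.811 and 49.5 ± 18.1 CPM (SD, n = 3 per group). Its log2 fold change was 3.35 ± 0.29 (SE), or 10.2-fold (edgeR, adjusted p = 0.0005194).

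A2m encodes alpha-2-macroglobulin, a secreted inhibitor that traps proteases of all classes. The gene lies at 121635376 to 121679227 on the plus strand of chromosome 6. Its WT levels were 24.3, 16.8 and 30.5 CPM, and its rd10 levels were 266, 378 and 211 CPM. The groups did not overlap, and the lowest rd10 library was several times the highest WT library. The log2 fold change was 3.58 ± 0.29 (edgeR, adjusted p = 0.0004535), an 11.9-fold rise from 23.9 ± 6.87 to 285 ± 85 CPM (SD, n = 3 per group). In order of fitted log2 fold change from the highest among 13905 genes, A2m ranked 31 and Lcn2 ranked 38.

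Lcn2 is also a granule protein of neutrophils, so the counts of neutrophil genes are given beside it. Mpo, Elane and Camp had 0 counts in all 6 libraries. Over the 3 libraries of a group, 0 counts allow a level of up to 0.0726 CPM in WT and 0.0791 CPM in rd10 (3 counts; counting error only). S100a8 had 1, 3 and 3 counts in WT against 0 in each rd10 library, and S100a9 had 0, 2 and 0 counts against 0, 1 and 1. The 9 neutrophil markers summed to 0.818 to 1.81 CPM in WT and 0.511 to 1.29 CPM in rd10, and the 1 that could be tested, Cxcr2, was not called. The neutrophil list was near 0 and no higher in the libraries where Lcn2 was high.

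The receptors of these secreted proteins were tested as well. Slc22a17, a receptor proposed for lipocalin 2, went from 180 ± 78.1 to 237 ± 55 CPM (SD, n = 3; edgeR, adjusted p = 0.4225), with overlapping groups. Lrp1, the main receptor that clears alpha-2-macroglobulin with its trapped protease, went from 114 ± 28.6 to 207 ± 62.2 CPM. Its groups did not overlap, but the change of 0.86 ± 0.25 on the log2 scale missed the threshold (edgeR, adjusted p = 0.05426). Lrp2, or megalin, which also takes up lipocalin 2 and is named after its values were seen, stood at 20.6 and 16.5 CPM with overlapping groups.

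Of 24 other acute-phase products fixed as a list, 8 were abundant enough to test and 5 of those rose, beside 7.12% of all tested genes. Of the 8, Crp, Steap4 and Ptx3 passed the abundance filter only through their rd10 libraries, and 2 of the 5 risers are among them, so the count is a description. Serpina3n, which encodes a serpin made by reactive glia, went from 10.8 ± 2.74 up to 375 ± 53.6 CPM (log2 fold change 5.12 ± 0.22; edgeR, adjusted p = 0.0001733). C3, the central complement component, rose from 4.07 ± 0.0577 to 50.2 ± 15.3 CPM. Steap4, a metalloreductase, rose from 0.71 ± 0.383 to 15 ± 1.34 CPM. Cp, the ferroxidase ceruloplasmin, started high and rose from 348 ± 71.4 to 922 ± 59.6 CPM. The fifth, Crp, named after its values were seen, had 2, 6 and 5 counts in the WT libraries against 25, 11 and 15 in those of rd10. None of the 8 fell, whether by edgeR, at an unadjusted p under 0.05, by DESeq2 or by limma voom. The 16 products that were not tested include the classic plasma proteins of the liver: serum amyloid Saa1 had 1 count in all WT libraries together and 0 in rd10, and Orm1, Fga, Fgb, Apcs and Pzp had 0 counts everywhere.

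Cytokines of the acute-phase response, their receptors and signal genes made up a list of 8. Il6 had 0 counts in all 6 libraries, so its level was at most the limit given above for 0 counts. Of the 6 tested genes of this list 4 rose, beside 7.12% of all tested genes: Stat3, Socs3, Osmr and Il6st, named after their values were seen. Socs3, the feedback inhibitor that STAT3 induces, went from 1.52 ± 0.256 to 8.25 ± 3.81 CPM, and Stat3 from 56.7 ± 9.75 to 137 ± 14.9 CPM. Osmr, the oncostatin M receptor, went from 14.9 ± 4.61 to 52.2 ± 7.98 CPM. Lifr, the receptor for leukaemia inhibitory factor, fell from 47.3 ± 10.8 to 21.9 ± 1.3 CPM (log2 fold change -1.11 ± 0.18; edgeR, adjusted p = 0.005317). Over all 14 tested genes of the acute-phase list, products and signal genes together, the median log2 fold change was 1.34 against -0.0371 over all tested genes. It too includes genes that passed the filter only through rd10, 4 of the 14.

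Of the 2 C/EBP factors 1 was called, beside 7.12% of all tested genes called higher, and a difference between the 2 was not shown. Cebpd, which encodes C/EBP delta and is a single-exon gene at 15887286 to 15891031 on chromosome 16, had 3.11, 2.16 and 1.22 CPM in WT and 7.52, 10.4 and 6.24 CPM in rd10. The lowest rd10 library was above the highest WT library. Its log2 fold change was 1.91 ± 0.35 (edgeR, adjusted p = 0.009406), a 3.75-fold rise from 2.16 ± 0.943 to 8.05 ± 2.13 CPM (SD, n = 3 per group). Its exons share 562 bases with Spidr on the opposite strand. The libraries kept strand, but the sources used here do not give the strand setting of the counting. Spidr itself rose by 0.66 ± 0.17 on the log2 scale (edgeR, adjusted p = 0.04081), from 7.41 to 11.7 CPM.

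Cebpb, which encodes C/EBP beta, is a single-exon gene at 167688915 to 167690418 on chromosome 2 and had the lowest counts of the 10 genes in rd10: 14, 4 and 1 in the WT libraries against 6, 10 and 10. WT-1 alone was above every rd10 library, and the highest WT level was 16.9 times the lowest. Its log2 fold change of 0.54 ± 0.76 did not pass the test (edgeR, adjusted p = 0.6787), and at this depth neither a fall nor a several-fold rise could be told from no change. It was 1.94 without WT-1. The Cebpb transcript has the highest GC content of the 10, 67.15%, and shares 312 bases with Tmem189 on the opposite strand. Within each library the log2 ratio of Cebpd to Cebpb was 1.409, 2.807 and 3.624 in WT and 3.922, 3.544 and 2.974 in rd10. These ratios overlapped (exact two-sided permutation test, p = 0.3; 3 libraries against 3 cannot go below 0.1).

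Among 5 other C/EBP family genes, 4 were tested and 1 was called, beside 14.4% of all tested genes called in either direction. Cebpa, which encodes C/EBP alpha and in nervous tissue is best known from microglia and macrophages, rose from 1.14 ± 0.328 to 6.02 ± 0.276 CPM (log2 fold change 2.39 ± 0.26; edgeR, adjusted p = 0.001047). Its 3 rd10 libraries held 80, 73 and 75 counts against 16, 11 and 20 in WT, and it passed the abundance filter only through rd10. Cebpg, the ubiquitous partner of the family, stood at 27.1 ± 6.73 and 29.1 ± 2.95 CPM (edgeR, adjusted p = 0.7693). Cebpe, which is known from granulocytes, had 0 counts in all libraries.

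In the NF-kB group, 1 of 4 genes was called, beside 7.12% of all tested genes called higher. It was Bcl3, which passed the abundance filter only through its rd10 libraries, so the count is a description. Bcl3, a nuclear IkB family protein that binds NF-kB dimers on DNA and can activate as well as repress, lies at 19808462 to 19822770 on the minus strand of chromosome 7. It had 4, 2 and 2 counts in the WT libraries against 31, 59 and 40 in those of rd10, or 0.327, 0.139 and 0.136 CPM against 2.38, 5.03 and 3.04 CPM. The gene was thus close to undetected in WT and plainly present in every rd10 library. The ratio of summed, scaled counts was 17.7, with an exact 95% interval of 8.73 to 41.9 that covers counting error only. The fitted log2 fold change, 4.09 ± 0.48 (edgeR, adjusted p = 0.001491), depends on the prior count at such low WT values, and it ranked 19 among 13905 genes. Because of how Bcl3 passed the filter, this fold change, its adjusted p and its rank are a description as well. The exons of Bcl3 share 161 bases with the antisense transcript Gm16175.

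Nfkbia, which encodes IkB alpha, the main cytoplasmic inhibitor and a direct target of NF-kB, lies at 55489410 to 55492647 on the minus strand of chromosome 12. Its levels were 20.8, 16 and 15.9 CPM in WT and 20, 27 and 18.6 CPM in rd10. The groups overlapped, and the change of 0.32 ± 0.19 on the log2 scale did not pass the test (edgeR, adjusted p = 0.2979). Within the libraries, the log2 ratio of Bcl3 to Nfkbia went from a mean of -6.3 ± 0.415 in WT to -2.69 ± 0.328 in rd10 (SD, n = 3 per group). That is a difference of 3.61 ± 0.305 (SE) with no overlap (exact two-sided permutation test, p = 0.1, the smallest this design allows; 0.186 after Benjamini-Hochberg adjustment over 26 ratios). Since Bcl3 passed the abundance filter only through its rd10 libraries, this ratio too is a description.

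Nfkb2 encodes the precursor that is processed into a DNA-binding NF-kB subunit in the second branch of the pathway, and lies at 46304320 to 46312385 on chromosome 19. Its levels were 4.5, 2.93 and 2.1 CPM in WT and 5.45, 8.09 and 5.25 CPM in rd10. Every rd10 library was above every WT library, though WT-1 came close to Rd10-5. The mean was 3.18 ± 1.22 CPM in WT and 6.26 ± 1.59 CPM in rd10 (SD, n = 3 per group), and the log2 fold change of 0.99 ± 0.32 missed the threshold (edgeR, adjusted p = 0.0753). The call depended on how the libraries were handled. Without WT-1 the log2 fold change was 1.31 (edgeR, adjusted p = 0.01385), and with each library's GC trend removed it was 0.93 ± 0.18 (adjusted p = 0.002529), which makes 7 called genes of 10. Calls over all genes rose in these fits as well. They went from 2008 of 13905 tested genes to 3214 of 14116 without WT-1 and to 4663 of 13905 with the GC trend removed. Nfkb2 shares 299 bases with Psd on the opposite strand, and Psd went the other way, from 111 to 55 CPM (edgeR, adjusted p = 0.09134).

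Relb encodes RelB, the partner of the processed Nfkb2 product, and lies at 19606217 to 19629438 on chromosome 7. Its levels of 3.92, 1.46 and 1.76 CPM in WT overlapped those of 2.46, 3.83 and 2.43 CPM in rd10. WT-1 was the highest library of all 6. The log2 fold change of 0.30 ± 0.40 did not pass the test (edgeR, adjusted p = 0.6646), and it was 0.84 without WT-1. The log2 ratio of Nfkb2 to Nfkb1 within libraries was higher in rd10 by 0.667 ± 0.32 (SE), with overlapping groups (exact two-sided permutation test, p = 0.2). The ratio of Relb to Rela was higher by 0.167 ± 0.203 (exact two-sided permutation test, p = 0.7).

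Relb and Bcl3 lie 179 kb apart on chromosome 7, with 9 genes of the count table between them. Of these, 6 were tested and 1 was called: Apoe, the lipid carrier of glia, rose by 1.53 ± 0.32 on the log2 scale (edgeR, adjusted p = 0.01676). Clptm1, Apoc1, Tomm40, Pvrl2 and Bcam, with log2 fold changes from -0.0715 to 0.506, did not pass, and Apoc2, Apoc4 and Cblc were too low to test. The stretch that separates Bcl3 from Relb thus held 1 called gene of 6, beside 14.4% of all tested genes called in either direction.

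**Figure D2:**
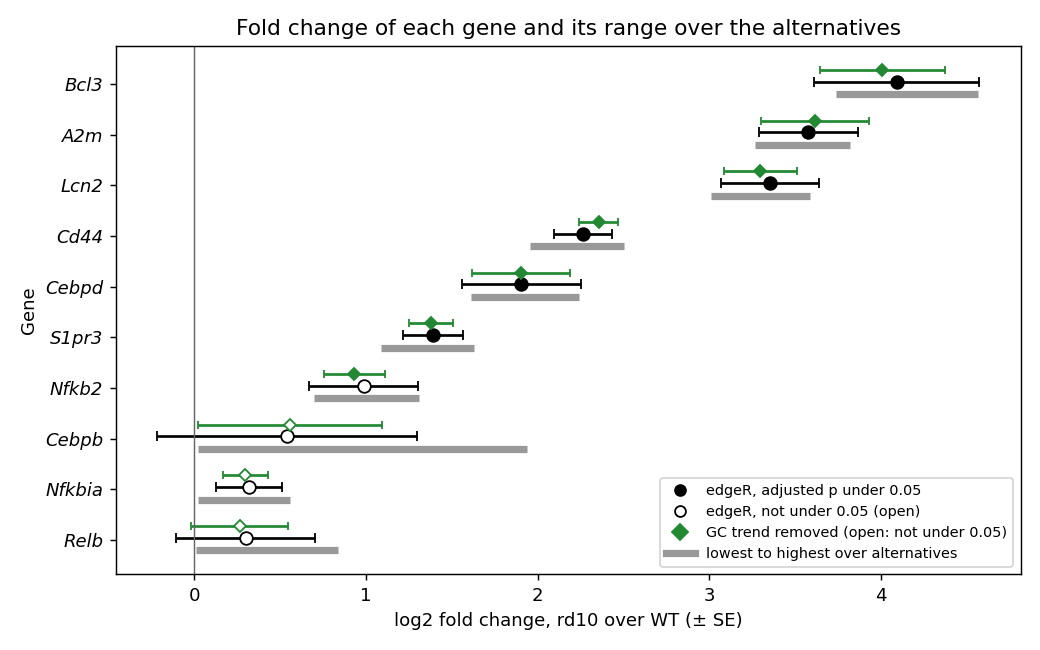
Log2 fold change of rd10 over WT for each gene, with circles for the reported fit, green diamonds for the fit with each library's GC trend removed (both ± SE, filled where the adjusted p was under 0.05) and grey bars from the lowest to the highest value over the alternative analyses. The 6 called genes are filled in both fits, Nfkb2 is filled only for the diamond, and the grey bars of Cebpb, Relb and Nfkbia reach from near 0 to 1.94, 0.84 and 0.56.

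Both surface receptors rose. Cd44, the receptor for the matrix sugar hyaluronan, is spread over 102811141 to 102901665 on the minus strand of chromosome 2 in 19 merged exons. It had 12.4, 13.4 and 18.1 CPM in WT and 74.6, 70.3 and 66.6 CPM in rd10, so the rd10 libraries lay close together and far above WT. It was the one gene of the 10 that was not highest in Rd10-4, and its GC content, 44.53%, was the lowest of the 10. The log2 fold change was 2.26 ± 0.17 (edgeR, adjusted p = 0.0004225), a 4.81-fold rise from 14.6 ± 3.04 to 70.5 ± 4.02 CPM (SD, n = 3 per group).

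S1pr3, a G protein-coupled receptor for sphingosine 1-phosphate, lies at 51408639 to 51422797 on chromosome 13. It had 43.9, 33.7 and 37.2 CPM in WT and 94.3, 123 and 83.6 CPM in rd10. The groups did not overlap, and S1pr3 was already well expressed in WT. It rose 2.62-fold, by 1.39 ± 0.18 on the log2 scale (edgeR, adjusted p = 0.001965). Against its family member S1pr1, best known from endothelium and astrocytes, S1pr3 gained within the libraries: the log2 ratio of S1pr3 to S1pr1 was -0.423, -0.986 and -0.719 in WT and 0.326, 0.545 and 0 in rd10. The difference was 1 ± 0.227 (SE) with no overlap (exact two-sided permutation test, p = 0.1, the smallest possible; 0.186 after adjustment over 26 ratios).

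Among 25 partners of the secreted proteins and surface receptors, 19 were tested and 5 rose, beside 7.12% of all tested genes called higher. Msn, encoding moesin, which ties CD44 to the actin cortex, rose from 53.5 ± 0.925 to 119 ± 2.49 CPM (log2 fold change 1.16 ± 0.10; edgeR, adjusted p = 0.0005621). Spp1, encoding the CD44 ligand osteopontin, rose from 27.4 ± 2.57 to 45 ± 4.11 CPM. Hyal1, a lysosomal hyaluronidase named after its values were seen, rose from 4.56 ± 0.178 to 8.2 ± 1.42 CPM. S1pr2 rose from 2.92 ± 0.606 to 6.52 ± 0.387 CPM, and Sgpl1, the lyase that degrades sphingosine 1-phosphate, from 36.5 ± 4.45 to 58.9 ± 2.61 CPM. S1pr1 stood at 62.3 ± 4.06 and 81 ± 5.02 CPM and did not pass (edgeR, adjusted p = 0.06025). It was called higher with library size alone (0.008525), with upper quartile factors (0.02762), by DESeq2 (0.03506) and with the GC trend removed (0.004388). The hyaluronan synthases Has1, Has2 and Has3 had at most 8 counts in any library and were not tested. No partner was called lower by edgeR, DESeq2 or limma voom, and none at an unadjusted p under 0.05. The count of calls moved both ways with the processing. Without Rd10-3 the count of called partners was 1, and without WT-4 it was 2. With factors from inner neuron genes it was 3, 2 of them higher and 1 lower. It was 12 with the GC trend removed, 11 with library size alone, 8 with upper quartile factors, 8 by DESeq2 and 8 without both WT-1 and Rd10-4, all higher. Without WT-1, 9 partners were higher and 1 lower. Calls over all genes, 2008 in the reported fit, moved as well. They were 885 without Rd10-3, 952 without WT-4, 4502 with inner neuron factors, 4663 with the GC trend removed and 3043 with library size alone. With upper quartile factors they were 2159, by DESeq2 2425, without both WT-1 and Rd10-4 2696, and without WT-1 3214.

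Levels can be compared between genes only per length, here as CPM per kilobase of merged GENCODE exons. In WT the order from the highest was Nfkbia (10.9), S1pr3 (8.58), A2m (3.4), Cd44 (2.16), Lcn2 (1.84), Nfkb2 (0.693), Relb (0.614), Cebpd (0.577), Cebpb (0.331) and Bcl3 (0.0811 CPM per kb). Neighbours whose libraries overlapped were A2m with Cd44, Cd44 with Lcn2, and each neighbouring pair from Nfkb2 down to Bcl3. In rd10 the order was A2m (40.6), S1pr3 (22.5), Lcn2 (18.9), Nfkbia (13.6), Cd44 (10.4), Cebpd (2.15), Bcl3 (1.41), Nfkb2 (1.37), Relb (0.749) and Cebpb (0.46 CPM per kb). There the overlapping neighbours were S1pr3 with Lcn2, Lcn2 with Nfkbia, Cebpd with Bcl3, and Bcl3 with Nfkb2. Nfkbia thus held place 1 in WT and place 4 in rd10, and Bcl3 place 10 in WT and place 7 in rd10. These levels depend on the gene model. The GENCODE model of Cebpd is 3.746 kb long, while the authors' deposited table ends the gene at 15888466, which would place Cebpd higher per length.

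The authors' deposited table holds 5 of the 10 genes, and Cebpb, Nfkb2, Relb, Bcl3 and Nfkbia are not listed in it. Its name carries terms for p-value, fold change and FPKM that read as cutoffs. Absence from it is therefore no measured level, and the reason for each absence was not tested. In the authors' deposited table the FPKM values of WT and rd10 were 1.9 and 19.0 for Lcn2, 9.5 and 113.8 for A2m, and 1.0 and 3.6 for Cebpd. For the surface receptors the authors' deposited table gives 2.6 and 12.5 for Cd44 and 12.6 and 33.1 for S1pr3. The order of these 5 genes by FPKM in the authors' deposited table was the same as by CPM per kb in each group. Bcl3, with one of the highest fold changes of all, is thus known here from the counts alone.

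Around these genes, the rest of the NF-kB pathway gave a few calls in both directions, and 28 of its 36 tested genes were not called. Of 47 pathway genes fixed as a list, 36 were tested, 5 were higher and 3 lower, against 7.12% and 7.32% of all tested genes. Their median log2 fold change was 0.0331, against -0.0371 over all tested genes. Without Rd10-3 the calls were 2 higher and 2 lower, and without WT-4 they were 2 higher and 3 lower. With factors from inner neuron genes the calls became 4 higher and 13 lower, and with library size alone 11 higher and 3 lower, so the balance of this list depends on the scaling.

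Receptors made up most of the higher calls. Tnfrsf1a, the ubiquitous TNF receptor, rose from 12.1 ± 3.06 to 36.5 ± 10.9 CPM (log2 fold change 1.59 ± 0.26; edgeR, adjusted p = 0.005715). Tnfrsf1b, the other TNF receptor, rose from 2.19 ± 0.786 to 8.72 ± 1.13 CPM (log2 fold change 2.00 ± 0.28; edgeR, adjusted p = 0.003302). Il1r1, the signalling interleukin-1 receptor, named after its values were seen, rose from 5.33 ± 0.95 to 10.1 ± 0.337 CPM. In all, 3 of 6 tested receptors rose, beside 7.12% of all tested genes. Of 18 tested kinases and adaptors 2 rose, which is near that share. They were the interleukin-1 receptor kinases Irak1 (18.7 ± 1.27 to 29.9 ± 2.54 CPM) and Irak4 (1.04 ± 0.395 to 3.21 ± 0.506 CPM), the latter admitted by the abundance filter only through rd10. Both calls were lost without WT-4 (edgeR, adjusted p = 0.06731 and 0.05141) and without Rd10-3 (0.0741 and 0.05677), and that of Irak1 also with factors from inner neuron genes (0.05749). No kinase or adaptor was called lower by edgeR or limma voom, 1 was by DESeq2, and 2 were lower at an unadjusted p under 0.05. Map3k14, which encodes the kinase NIK upstream of Nfkb2 processing and is named after its values were seen, had 307, 184 and 166 counts in the WT libraries against 47, 123 and 60 in those of rd10. Its groups did not overlap, and its log2 fold change of -1.40 ± 0.45 missed the threshold (edgeR, adjusted p = 0.07522).

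Ligand transcripts were scarce. Of 10 ligands only Tnfsf12, encoding TWEAK, was abundant enough to test, and it fell from 71.2 ± 10.9 to 27.6 ± 1.76 CPM (log2 fold change -1.37 ± 0.14; edgeR, adjusted p = 0.0009699). Tnf, named after its values were seen, had 0 counts in the WT libraries against 1, 0 and 1 in those of rd10. Il1b had 0 counts in the WT libraries against 0, 0 and 2 in those of rd10, and Il1a had 1, 0 and 2 counts against 9, 1 and 6. For Tnf and Il1b a change was not detectable at this depth. For Il1a the ratio of summed, scaled counts was 5.81, with an exact 95% interval of 1.66 to 31.1 that covers counting error only, and Rd10-4 with its single count lay within the WT range.

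Inhibitors and feedback regulators gave 2 lower calls among 8 tested and none higher, by edgeR, DESeq2 and limma voom alike. By edgeR, 7.32% of all tested genes were called lower. Tnfaip3 encodes A20, a ubiquitin-editing brake on NF-kB that NF-kB itself induces. It had 3482, 4068 and 4653 counts in the WT libraries against 835, 830 and 980 in those of rd10, so all rd10 libraries were far below WT. It fell from 295 ± 18.2 to 69.8 ± 5.3 CPM (log2 fold change -2.08 ± 0.12; edgeR, adjusted p = 0.0002707), opposite in direction to Bcl3. Nfkbiz, a nuclear IkB protein related to Bcl3, fell from 5.2 ± 1.44 to 2.08 ± 0.355 CPM (log2 fold change -1.31 ± 0.28; edgeR, adjusted p = 0.0185). The Nfkbiz call was lost when any one rd10 library was left out (edgeR, adjusted p = 0.05569 without Rd10-3, 0.05889 without Rd10-4 and 0.06998 without Rd10-5). The list of 8 rod genes moved with these falls. All 8 rod genes were lower, with a median log2 fold change of -2.09 and sums of 86500 to 1e+05 CPM in WT and 17400 to 25700 CPM in rd10. Its part in the fall of Tnfaip3 was not tested.

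The 3 other Rel family subunits gave no calls in the reported fit. Nfkb1 stood at 13 ± 0.903 and 16.6 ± 2.14 CPM (log2 fold change 0.35 ± 0.15; edgeR, adjusted p = 0.1665), Rela at 16.8 ± 6.9 and 19 ± 4.93 CPM, and Rel at 1.8 ± 0.439 and 1.43 ± 0.115 CPM. None was called by DESeq2 or limma voom either, and none had an unadjusted p under 0.05. With library size alone, Nfkb1 was called higher (log2 fold change 0.59; edgeR, adjusted p = 0.02628). Counting Nfkb2 and Relb with them, edgeR called none of the 5 genes that encode DNA-binding subunits of NF-kB, and DESeq2 called Nfkb2 (adjusted p = 0.03362).

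Of 18 well-known NF-kB target genes, 13 were tested and 4 rose, beside 7.12% of all tested genes called higher. Since 5 of the 13, among them the risers Icam1, Cxcl10 and Bcl2a1b, passed the abundance filter only through their rd10 libraries, this count is a description. Vcam1, an adhesion molecule, rose from 32.8 ± 4.91 to 102 ± 12.1 CPM (log2 fold change 1.64 ± 0.15; edgeR, adjusted p = 0.0006933). Icam1, another adhesion molecule, rose from 0.878 ± 0.12 to 5.69 ± 1.67 CPM. Cxcl10, an interferon-induced chemokine, had 1, 0 and 1 counts in the WT libraries against 15, 9 and 22 in those of rd10, a ratio of 25.1 with an exact 95% interval of 6.56 to 213. Bcl2a1b had 1, 2 and 2 counts in the WT libraries against 17, 16 and 17 in those of rd10, and since near-identical copies of this gene exist its count is uncertain. No target was called lower by edgeR or limma voom, 1 was by DESeq2, and 2 were lower at an unadjusted p under 0.05. Of Nfkbia and Tnfaip3, which NF-kB also induces, the former was not called and the latter fell.

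**Figure D3:**
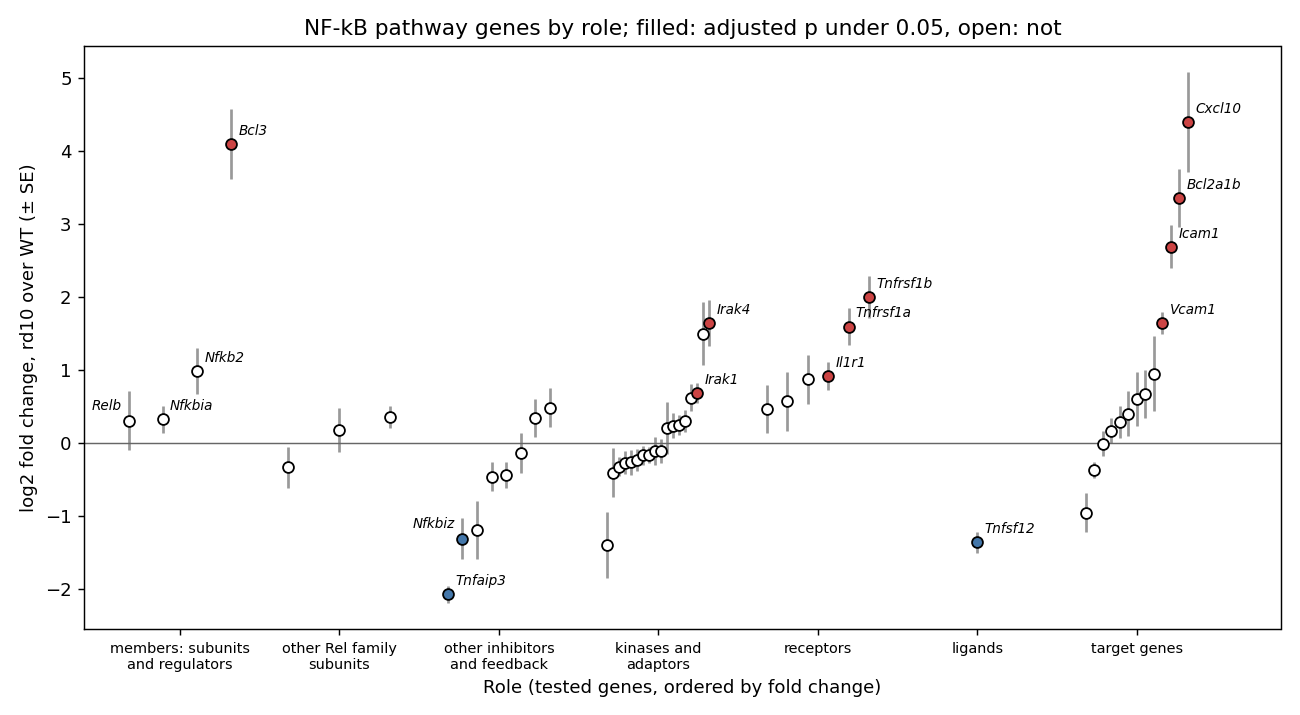
Log2 fold change of rd10 over WT (± SE) for the tested NF-kB genes, grouped by role and ordered within each role, with filled points where the adjusted p was under 0.05 (red higher, blue lower). Bcl3, 3 receptors, 2 kinases and 4 targets are filled above 0, and Tnfaip3, Nfkbiz and Tnfsf12 are filled below 0.

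In whole tissue, fewer cells of a type and less RNA per cell cannot be told apart, and the makeup of the rd10 retina differed from WT. All 11 microglial and macrophage markers rose, by 2.12 at the median on the log2 scale, with sums of 104 to 111 CPM in WT and 305 to 364 CPM in rd10. Aif1 and Ptprc among them passed the abundance filter only through rd10. Of 10 Müller cell markers 7 rose, with a median of 0.578 and sums of 7510 to 7870 CPM in WT and 9810 to 10600 CPM in rd10. The count was 3 without WT-4, 3 without Rd10-3 and 4 without Rd10-4, and with factors from inner neuron genes it was 2. Of 5 astrocyte markers 4 were tested and 3 rose, with sums of 88.7 to 146 and 424 to 563 CPM. Most of that sum was Gfap, which reactive Müller cells also make, at 55.3 and 356 CPM. The astrocyte marker Pax2 stood at 0.474 and 0.491 CPM. T and B cell markers summed to 1.02 to 1.6 CPM in WT and 1.9 to 2.61 CPM in rd10. Of 16 inner neuron markers 15 had a positive fold change, with a median of 0.281 on the log2 scale. Their sums were 3230 to 3480 CPM in WT and 4020 to 4210 CPM in rd10. Of these markers 3 were called higher, and 0 without WT-4 or without Rd10-3. Over all tested genes 7.12% were called higher.

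Each gene was also set against the Müller and the microglial marker sums within its own library, which needs no scaling factor. Relative to the Müller markers, 6 genes were higher in every rd10 library than in every WT library: Lcn2 by 2.89 ± 0.297, A2m by 3.16 ± 0.334, Bcl3 by 3.51 ± 0.459, Cd44 by 1.87 ± 0.187, Cebpd by 1.53 ± 0.411 and S1pr3 by 0.964 ± 0.167 (log2, SE). Of all tested genes, 5.66% lay above on the same ratio without overlap. Glul, which did not pass the test, made up 53.4 to 56.1% of the Müller sum in WT and 48.9 to 50.6% in rd10. With Glul left out of the sum the same 6 genes were higher without overlap, by 0.825 for S1pr3 to 3.37 for Bcl3, against 4.17% of all tested genes. None of the 10 genes lay below without overlap on either form of this ratio, against 50.2% of all tested genes with Glul in the sum and 61.3% without it. Relative to the microglial markers, 4 of those stayed above without overlap: Lcn2 by 1.7 ± 0.245, A2m by 1.97 ± 0.324, Bcl3 by 2.32 ± 0.438 and Cd44 by 0.682 ± 0.208. On this ratio 0.992% of all tested genes lay above without overlap. Cebpd and S1pr3 overlapped, at 0.344 ± 0.39 and -0.223 ± 0.146 (exact two-sided permutation test, p = 0.5 and 0.2). Relb and Nfkbia were lower against the microglial markers without overlap, by -1.21 ± 0.451 and -1.29 ± 0.15, but so were 93.7% of all tested genes. Each ratio without overlap has an exact two-sided permutation p of 0.1, the smallest possible, and 0.186 after adjustment over 26 ratios. Bcl3, which lay above on both kinds of ratio, passed the abundance filter only through its rd10 libraries. The counts of genes above that include Bcl3 are therefore a description. The part of microglia, Müller cells or astrocytes in the level of each gene was not tested.

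**Figure D4:**
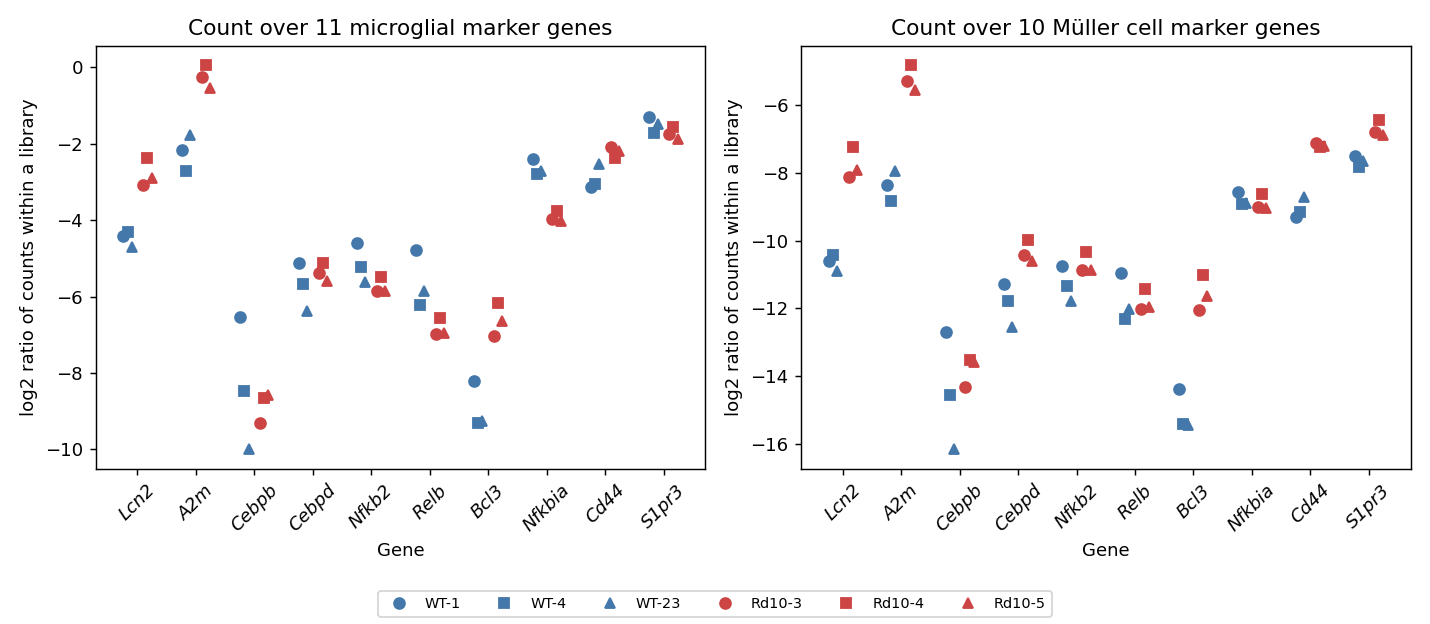
Log2 ratio of each gene's count to the summed count of 11 microglial markers (left) and of 10 Müller cell markers (right) within each library, with blue points for WT and red points for rd10. Against the Müller markers the red points lie above all blue points for 6 genes, and against the microglial markers for Lcn2, A2m, Bcl3 and Cd44, while those of Relb and Nfkbia lie below.

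Finally, the genes whose pattern over the 6 libraries was most like the mean centred profile of the 10 genes were sought among 13514 others with a mean of at least 1 CPM, by the root mean square distance in log2 CPM. The nearest were Unc93b1, which carries nucleic acid-sensing Toll-like receptors to endosomes, at a distance of 0.0714, and Bmp1, a procollagen protease, at 0.0715. Trem2, a lipid-sensing receptor of microglia, followed at 0.104, Tmem176a at 0.118 and Tgm2, a protein cross-linking transglutaminase, at 0.121. The 10 genes themselves lay farther from their own mean, at 0.222 for Cebpd, the nearest, to 0.944 for A2m, so the mean profile describes no single gene among them closely.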

How the data were processed

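RNA of 6 retina samples was made into TruSeq libraries that keep the strand, per the labels' protocols. The submitters' processing notes name TopHat2 2.1.0, HTSeq, edgeR and the mm10 build. The sources used here do not give the role of each tool, the annotation or the strand setting. The deposited gene counts are whole numbers and were used as they stand. A second deposited table gives 1 FPKM value for each group with the log2 fold change and the p-value of each gene, per the file headers, without saying how they were averaged or adjusted.

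Count columns were put in a group by name, since their numbers match no replicate number of the titles. Pairs of libraries within a group differed by a chi-square per degree of freedom of 7.36 to 57.8, so none was treated as a copy. After filterByExpr, 13905 genes were tested with edgeR 4.0.16 in R 4.3.3 (TMM, robust quasi-likelihood fit, genotype only), p-values adjusted by Benjamini-Hochberg and called under 0.05. The scripts were tested on simulated data. Within-library log2 ratios added 0.5 to each count and were compared by exact permutation (scipy 1.17.1). Alternatives included DESeq2 1.42.0 and limma 3.58.1 voom, other factors and filters, and leaving out each library. Removal of each library's GC trend, available for 99.4% of tested genes, leaving out WT-1 with Rd10-4, and leaving Glul out of the Müller sum were chosen after seeing the data. Gene positions are from GENCODE M21 (GRCm38).

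The 10 genes and the lists were chosen with earlier results of these data known. From each other list, up to 4 called genes with the smallest p in each direction were named, plus partners in ratios. Genes named outside this rule are marked as such.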

Additional observations from a re-analysis of the deposited data

How the results depend on the processing

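The count of 6 genes higher and 0 lower was 6 or 7 and 0 under all 19 alternatives; the seventh was Nfkb2, called with library size alone, with DESeq2, without WT-1, with the GC trend removed, and without both WT-1 and Rd10-4. Lcn2, A2m, Cebpd, Bcl3, Cd44 and S1pr3 were called in each of the 19, and Cebpd came closest to the threshold (highest adjusted p 0.04689). Over all genes, the 2008 calls became 3043 with library size alone, 4502 with inner neuron factors, 1285 against a fold of 1.2 and 4663 with the GC trend removed. They became 3214 without WT-1, 952 without WT-4, 885 without Rd10-3, 1227 without Rd10-4 and 1317 without Rd10-5. The 8 NF-kB pathway calls became 14 with library size alone, 17 with inner neuron factors and 16 with the GC trend removed, and ran from 4 without Rd10-3, and 5 without WT-4, to 12 without WT-1.

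Sign changes touched only values that were not called. With inner neuron factors the log2 fold change was -0.1092 for Rela and -0.2089 for Cebpg. Without both WT-1 and Rd10-4, Cebpg was at -0.01837 and the log2 ratios of Cebpb to microglial markers and Relb to Müller markers at 0.2886 and 0.1916. Leaving out one library, Rela ran from -0.05431 to 0.5524 and Cebpg from -0.06352 to 0.317. The ratio of Relb to Rela ran from -0.03171 to 0.2786, Cebpb to Cebpg from -0.08844 to 2.044, and Cebpb to microglial markers from -1.357 to 0.381. Against Müller markers, Cebpb ran from -0.1797 to 1.558, Relb from -0.3014 to 0.3811 and Nfkbia from -0.2387 to 0.006704. The cause was not tested. No paired analysis was possible because the count columns carry none of the replicate numbers of the titles. Depth limits Cebpb, Bcl3 in WT and the cytokine ligands, which had few counts.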
